A study of Bos taurus with 20 samples.

Results

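The genes described here are 10 cattle genes listed as imprinted, PLAGL1, IGF2R, GNAS, SNRPN, PEG10, PEG3, MEST, NAP1L5, CDKN1C and KCNQ1. They were taken by symbol from the 37063 genes counted in maternal blood, and their imprinting in blood was not measured. Whole blood had been drawn at day 63 of gestation from 20 recipient cows, each carrying a female beef calf from an in vitro-produced embryo made with X-sorted semen. There was no treatment, no genotype contrast and no nonpregnant cow, the variable compared was the weight of the calf at birth (BW), and each cow gave 1 library. Calf BW was 45.0 ± 10.1 kg (SD, n = 20), and 43.5 ± 7.97 kg (SD, n = 19) without the calf of 72.5 kg, which the study's methods leave out of the differential expression analysis. By the study's methods the cows were of different ages, and parity and sire could also vary, but the labels give none of these per cow and they were not modelled here. Each cow is named below by the BW of her calf in kg, so that cow 56 bore the calf of 56 kg.

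An imprinted gene is transcribed mainly from the copy inherited from 1 parent, because methylation set in the egg or sperm persists at a control region. Several such genes act on growth of the fetus and placenta, those expressed from the paternal copy often promoting it and those from the maternal copy often restraining it, and disturbed imprinting is known in overgrown calves from in vitro-produced embryos. Whole blood RNA comes mainly from leukocytes, platelets and red cell precursors of the cow, cell-free RNA of the fetus may add to it, and the counts tell neither that origin nor the parental copies apart. Fewer cells of a type and less RNA per cell cannot be told apart in such samples.

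Of the 10 genes, 8 were expressed at a countable level, with at least 10 counts in at least 5 of 19 cows, a filter that 43.7% of all genes passed. GNAS, IGF2R, PLAGL1 and SNRPN had a median of at least 545 counts per cow, whereas KCNQ1, MEST, PEG10 and CDKN1C had a median between 26 and 48.5 counts. PEG3 had counts in 11 cows only and NAP1L5 in none. None of the 8 genes passed the test for a slope on calf BW. In edgeR's quasi-likelihood test, 0 of the 8 had an FDR below 0.05 (0% of the 16206 genes tested) and 0 had an unadjusted p below 0.05 (13.9% of all genes tested, 6.78% with a positive and 7.08% with a negative slope). With DESeq2 these numbers were also 0 and 0 of the 8 (1.24% of the genes given an FDR, and 10.6% of those given a p or 14.3% of those past the count filter). With limma and voom 0 of the 8 had an FDR below 0.05, but so did 0 of all genes tested. The slopes were positive for 4 genes and negative for 4, with a median of 0.00026 on the log2 scale per kg, where the median of all genes was -0.00072 and 46.6% of genes were positive. With DESeq2 5 were positive and 3 negative, with a median of 0.00081 where that of all genes past the filter was -0.00030. The sign of KCNQ1, whose slope was nearest 0, was the one that differed.

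Total counts ranged from 24632077 to 39892111 per cow, and every one of the 190 pairs of libraries differed beyond counting error (chi-square per degree of freedom of at least 12.6). The labels give no batch, so no values within batches exist. Levels are CPM, the count divided by the scaled library total in units of 1e6 counts, with TMM scaling, which are not divided by transcript length, so they give no order of expression between genes. Of the 78776 values between 1 and 19 in the files, 58.3% were even, and a count of 2 occurred 10846 times against 3918 times for a count of 1. Whether the reads of a pair were counted separately is not stated, and the counting error is therefore given below for both cases.

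**Figure D1:**
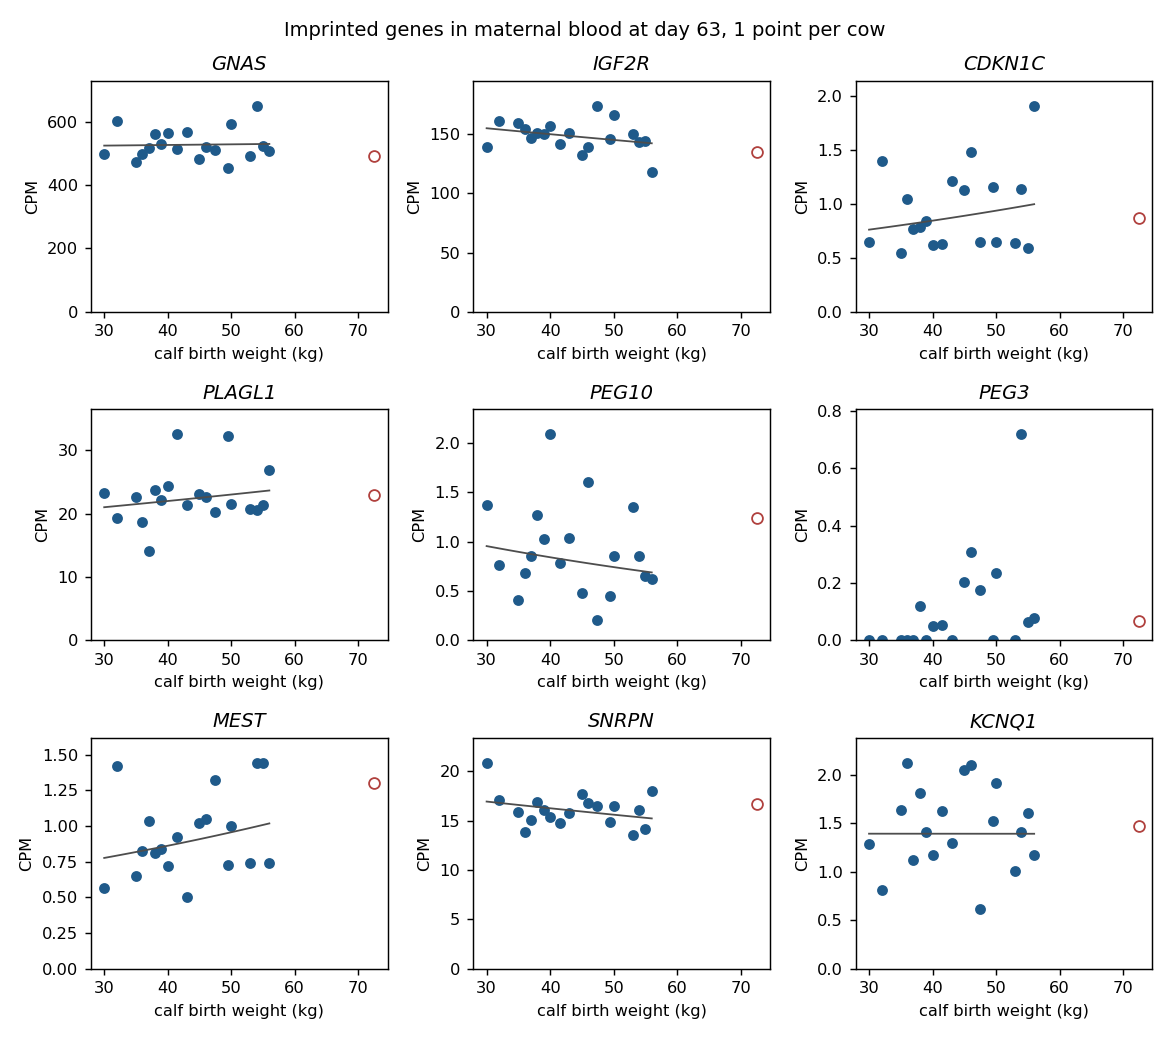
CPM of 9 imprinted genes (y axis of each panel, from 0) against calf BW in kg (x axis), 1 point per cow. Filled points are the 19 cows of the fit, the open point is cow 72.5, and the line is the fitted slope through the mean log2 CPM (no line for PEG3, which lay under the count filter). The 8 fitted slopes all have intervals that include 0, and the PEG3 counts, 0 in 9 cows, are highest in cow 54.

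IGF2R comes first, followed by CDKN1C, its neighbour KCNQ1, and GNAS. IGF2R (Entrez 281849) is the receptor that carries lysosomal enzymes and takes the growth factor IGF2 to its breakdown. Its lowest, median and highest levels over the 20 cows were 118.3, 148.5 and 173.9 CPM. The lowest belonged to cow 56 and the highest to cow 47.4, so the lowest level was in the cow of the heaviest calf of the fit. The slope was -0.0047 per kg (standard error 0.0036, unadjusted p = 0.208, FDR = 0.609 with edgeR), and -0.0013 without cow 56 (unadjusted p = 0.708). Over the 26 kg between the lightest and heaviest calves of the fit this corresponds to a ratio of 0.918, with a 95% interval from 0.801 to 1.05. IGF2, the ligand that this receptor removes, ran from 1.09 to 3.83 CPM and had a slope of 0.018 (unadjusted p = 0.284, FDR = 0.673 with edgeR).

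CDKN1C (Entrez 510972) encodes an inhibitor of cyclin-dependent kinases that stops cell division. It had 16 to 53 counts per cow, and its lowest, median and highest levels were 0.545, 0.811 and 1.91 CPM. Cow 56 was the highest and cow 46 the next, at 1.48 CPM. Its slope was 0.015 per kg (standard error 0.016, unadjusted p = 0.362, FDR = 0.731 with edgeR), and -0.00094 without cow 56. The ratio over 26 kg was 1.31 with a 95% interval from 0.717 to 2.39, so a rise of up to 2.39-fold was within the interval at this depth.

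KCNQ1 (Entrez 784876) encodes a potassium channel, and an intron of it holds the control region of the domain in which CDKN1C lies. The genes are neighbours in the cattle gene table. KCNQ1 ranged from 0.616 to 2.12 CPM with a median of 1.44, the lowest in cow 47.4 and the highest in cow 36. Its slope was -3.1e-05 per kg (standard error 0.014, unadjusted p = 0.998, FDR = 0.999 with edgeR), which is 0.999-fold over 26 kg (95% interval 0.580 to 1.72). Between CDKN1C and KCNQ1, r (Pearson) was 0.069 over the 20 cows (permutation p = 0.773), and rho (Spearman) was 0.036 (permutation p = 0.882).

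GNAS (Entrez 281793) encodes the stimulatory G protein alpha subunit that couples hormone receptors to cyclic AMP. It had 12360 to 23508 counts per cow and its lowest, median and highest levels were 454.3, 514.8 and 650.5 CPM, in cows 49.5 and 54 at the extremes. The slope was 0.00055 per kg (standard error 0.0038, unadjusted p = 0.887, FDR = 0.969 with edgeR). The ratio over 26 kg was 1.01 with a 95% interval from 0.875 to 1.17. The locus has several promoters with different imprinting, and the count per gene merges their transcripts, of which none could be described alone.

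Transcription factors of the list are PLAGL1 and PEG3, both zinc finger proteins. PLAGL1 (Entrez 539761), which restrains cell cycle and regulates other imprinted genes, had 479 to 1287 counts per cow. The lowest, median and highest levels were 14.1, 22.4 and 32.5 CPM. Cow 41.5 was the highest and cow 49.5 was next, at 32.2 CPM, and cow 37 was the lowest. The slope was 0.0066 per kg (standard error 0.0076, unadjusted p = 0.396, FDR = 0.755 with edgeR), or a ratio of 1.13 over 26 kg (95% interval 0.847 to 1.496).

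PEG3 (Entrez 444864) was near the limit of detection. It had 70 counts in all 20 cows together, 0 counts in 9 cows and between 2 and 26 in the other 11. The highest, 26 counts or 0.719 CPM, was in cow 54, and the next, 10 counts or 0.308 CPM, was in cow 46. A count of 0 allows up to 3 counts in a library, between 0.0771 and 0.122 CPM in the 9 cows at 0, or 6 counts, between 0.154 and 0.244 CPM, if counts come in pairs, so these cows cannot be called without expression. All 11 counts above 0 were even. In fits without a count filter the slope was 0.21 per kg with edgeR (unadjusted p = 0.00978, FDR = 0.165 over 23087 genes) and 0.22 with DESeq2 (unadjusted p = 0.00332, FDR = 0.150 without independent filtering), neither past 0.05. Without cow 54 the edgeR slope was 0.17 (unadjusted p = 0.0809, FDR = 0.422) and the DESeq2 slope 0.18 (unadjusted p = 0.0307, FDR = 0.384 without independent filtering). The lightest calf whose mother had a count weighed 38 kg, but cows 39, 43, 49.5 and 53 were also at 0. Cows 55 and 56, and cow 72.5 outside the fit, had 2 counts each, the lowest count above 0. The counts thus did not rise up to the heaviest calves.

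PEG10 and MEST are known for paternal expression and a role in the placenta. PEG10 (Entrez 618138), a retrotransposon-derived gene needed for placental development, had 7 to 84 counts per cow. Its lowest, median and highest levels were 0.205, 0.854 and 2.09 CPM. Cow 40 was the highest and cow 47.4 the lowest. The slope was -0.018 per kg (standard error 0.022, unadjusted p = 0.416, FDR = 0.768 with edgeR) and -0.0026 with all 20 cows, with a ratio over 26 kg of 0.720 and a 95% interval from 0.317 to 1.64.

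SGCE, which adjoins PEG10 in the gene table and is known to share its promoter region, had a median of 9.5 counts and reached 64 counts, or 1.59 CPM, in cow 40. Across the 20 cows Pearson's r of PEG10 with SGCE was 0.32 (permutation p = 0.164, adjusted over 4 pairs of neighbouring or similar genes 0.458) and Spearman's rho was 0.43 (permutation p = 0.058). Without cows 47.4 and 40 Pearson's r was 0.26, and without cow 40 alone it was 0.17. PEG10 and SGCE were thus both highest in cow 40, and their relation across cows did not pass the test.

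MEST (Entrez 404180) encodes a hydrolase of mesoderm and placenta. It had 14 to 54 counts per cow, and its lowest, median and highest levels were 0.505, 0.880 and 1.44 CPM, with the lowest in cow 43. Cows 54 and 55 were both at 1.44 CPM, and cow 32 was close to them. The slope was 0.015 per kg (standard error 0.014, unadjusted p = 0.289, FDR = 0.676 with edgeR), and the ratio over 26 kg was 1.31 (95% interval 0.781 to 2.20). Without cow 32 the slope was 0.029 (unadjusted p = 0.0542 with edgeR), whereas it was 0.0091 without cow 54 (unadjusted p = 0.544), 0.0091 without cow 55 (unadjusted p = 0.550) and 0.0094 without cow 30 (unadjusted p = 0.527). MEST overlaps COPG2, a coat protein gene with a median of 2103 counts, in the gene table, and its count may be uncertain for that reason. Between MEST and COPG2, r (Pearson) was 0.28 over the 20 cows (permutation p = 0.229, adjusted p = 0.458), rho (Spearman) was 0.51 (permutation p = 0.0239), and r was 0.32 without cows 43 and 55. Leaving out 1 cow gave r between 0.23 and 0.55, the highest without cow 56.

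Markers of trophoblast, the placental cells that express several imprinted genes, were at or near 0. None of the 8 genes of the trophoblast list passed the count filter, 7 of them were found in the files, and their summed level was between 0 and 0.470 CPM. CSH2, PRP1, PRP2, PAG2 and CDX2 had no count in any cow.

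SNRPN and NAP1L5 are paternally expressed genes of RNA and chromatin proteins. SNRPN (Entrez 780877) encodes a core protein of spliceosomal particles and had 385 to 649 counts per cow. Its lowest, median and highest levels were 13.6, 16.1 and 20.9 CPM. Cow 30 was the highest and cow 56 the next, at 18.01 CPM, and cow 53 was the lowest, so the mothers of the lightest and the heaviest calves of the fit were both at the top. The slope was -0.0059 per kg (standard error 0.0042, unadjusted p = 0.176, FDR = 0.575 with edgeR), the smallest p of the 8 genes, and -0.00088 without cow 30. The ratio over 26 kg was 0.899 with a 95% interval from 0.768 to 1.05.

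SNRPN arose as a copy of SNRPB, whose protein is closely similar, so reads may be shared and the level of SNRPN is uncertain. SNRPB ranged from 41.7 to 55.1 CPM, and its slope was -0.0079 per kg (standard error 0.0027, unadjusted p = 0.00916, FDR = 0.213 with edgeR). Between SNRPN and SNRPB, r (Pearson) was 0.22 (permutation p = 0.347), rho (Spearman) was 0.044 (permutation p = 0.857), and Pearson's r was -0.069 without cows 30 and 53.

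NAP1L5 (Entrez 508508), a nucleosome assembly protein gene, was listed at 0 in all 20 cows. Over the 658748645 counts of all cows this allows up to 0.00455 CPM, or 0.00911 CPM if counts come in pairs. In the gene table NAP1L5 lies within the span of HERC3, a ubiquitin ligase gene that had 2594 to 4372 counts per cow. SNURF, which lies within SNRPN and shares its transcript, was also at 0 in every cow. Of the 1106 protein-coding genes within the span of another protein-coding gene, 1010 had no count in any cow (91.3%), compared with 2629 of the 20560 others (12.8%). The value 0 for NAP1L5 is therefore not a measure of its absence from blood. How reads that fit exons of more than 1 gene were treated is not stated, and its part in these zeros was not tested.

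Of HERC3, COPG2, SNRPB and SGCE, the adjoining or similar genes listed for comparison that passed the filter, HERC3 had the smallest p, with a slope of 0.0085 per kg (standard error 0.0024, unadjusted p = 0.00215, FDR = 0.158 with edgeR and 0.0463 with DESeq2). Its highest level, 120.8 CPM, was in cow 56. Without that cow the slope was 0.0070, with an unadjusted p of 0.0122 in edgeR, the largest of the 19 fits that left out 1 cow. COPG2 had a slope of 0.021 (unadjusted p = 0.00413, FDR = 0.181 with edgeR), which was 0.012 without the same cow, where COPG2 reached 113.0 CPM.

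**Figure D2:**
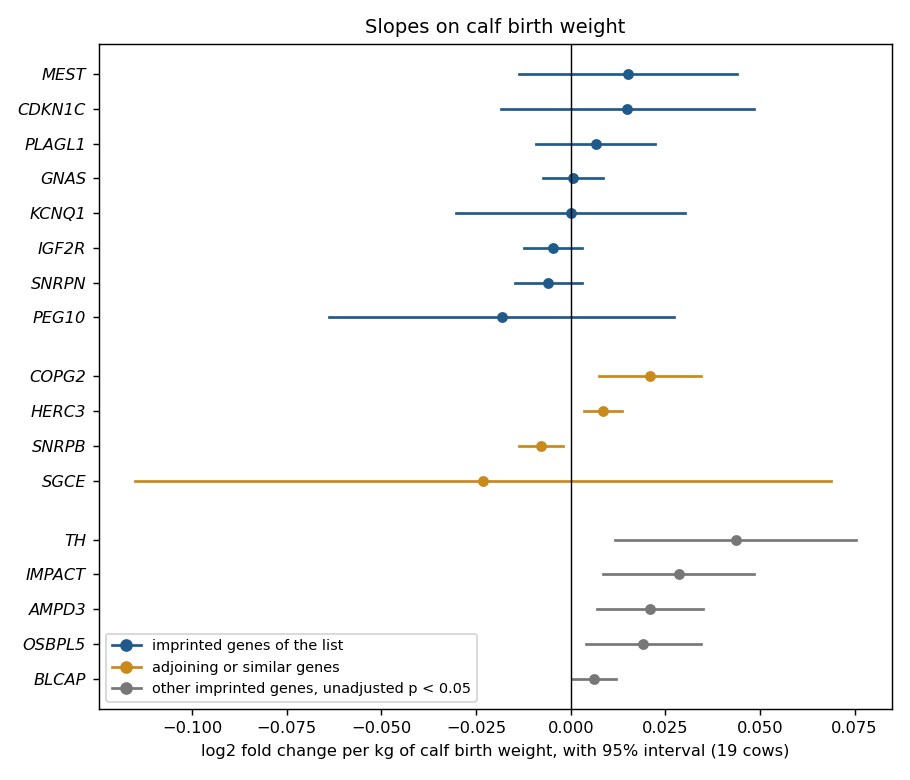
Slopes on calf BW, as log2 fold change per kg in 19 cows (x axis), with 95% intervals (bars). Shown are the 8 imprinted genes past the count filter, 4 adjoining or similar genes and 5 other genes with an unadjusted p below 0.05. These 5 are from a wider list of genes imprinted in at least 1 mammal, not necessarily in cattle. All 8 intervals of the listed genes include 0, those of COPG2, HERC3 and SNRPB do not, and all 5 of the lowest group, shown because of their p, lie above 0.

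The spread between libraries differed widely among the genes. The coefficient of variation (CV) of CPM over 20 cows was 8.43% for IGF2R, 9.19% for GNAS, 10.2% for SNRPN and 18.3% for PLAGL1. For these 4 genes counting error gives at most 6.15%, also if counts come in pairs. With 1 library per cow, differences between cows and those from extraction and library preparation cannot be told apart in the rest. The CV was 28.5% for KCNQ1, 31.0% for MEST, 39.1% for CDKN1C and 48.8% for PEG10. Counting error alone gives between 14.5% and 18.1% for these genes, or between 20.5% and 25.6% with counts in pairs. The CV of MEST and KCNQ1 exceeded the latter by the least.

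The biological coefficient of variation estimated by edgeR places each gene among all 16206 genes tested, whose median was 15.9%. Each estimate is drawn towards the trend of genes of like level, so it is not the gene's own spread alone. IGF2R, GNAS and SNRPN had 9.32%, 9.65% and 10.9% and stood at percentiles 19.6, 22.0 and 30.5. Relative to genes of like level they were at percentiles 47.1, 55.8 and 22.7, so IGF2R and GNAS were near the middle. PLAGL1 had 17.5% and stood at percentile 53.9, but relative to genes of like level it was at percentile 79.0. For PEG10 the value was 46.9%, at percentile 84.1, or 70.8 relative to genes of like level. CDKN1C, MEST and KCNQ1 were between percentiles 71.3 and 76.7, and between 21.7 and 42.2 relative to genes of like level.

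**Figure D3:**
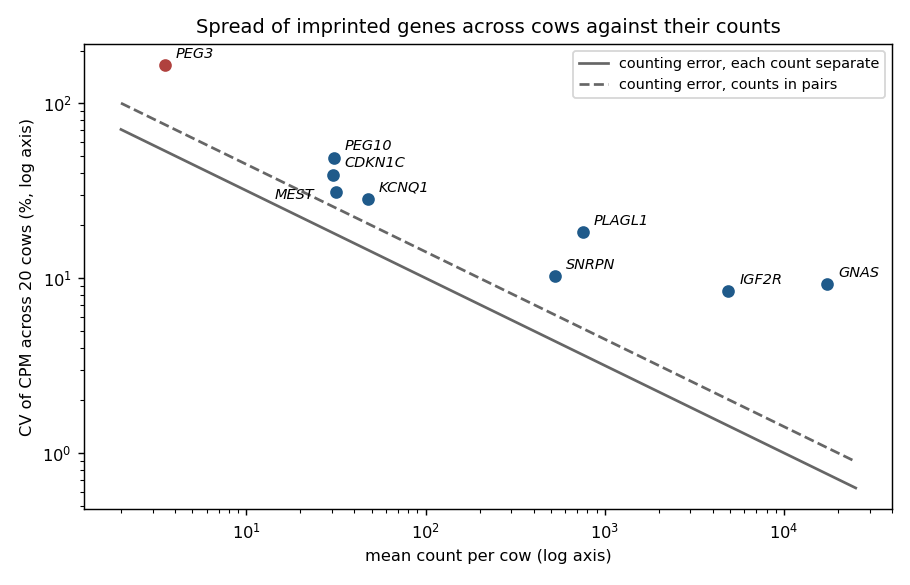
CV of CPM across 20 cows in percent (y axis, log scale) against the mean count per cow (x axis, log scale) for 9 imprinted genes, with PEG3, which lay under the count filter, in red. The lines give the CV from counting error alone, for separate counts (solid) and for counts in pairs (dashed). GNAS, IGF2R and PLAGL1 lie far above both lines, and MEST and KCNQ1 lie closest to the dashed line.

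No pair of the imprinted genes passed a test of common variation across cows. Of the 28 pairs among the 8 genes, 14 had a positive Pearson correlation and the median was 0.021. After adjustment over the 28 pairs, 0 had a p below 0.05 by a permutation test. The smallest unadjusted p was that of IGF2R and CDKN1C, with Pearson's r of -0.50 (permutation p = 0.0238, adjusted p = 0.666) and Spearman's rho of -0.32 (permutation p = 0.174). Without cows 56 and 47.4 Pearson's r was -0.21. Cow 56 was the lowest for IGF2R and the highest for CDKN1C.

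Levels of some genes moved with markers of blood cells. Each gene was compared with scores of 10 marker lists over the 20 cows, 80 relations in all. GNAS followed the platelet list, with Pearson's r of 0.73 (permutation p = 0.00035, adjusted p = 0.0212) and Spearman's rho of 0.70 (permutation p = 0.00086, adjusted p = 0.0688). Without cows 54 and 32, the highest for GNAS, Pearson's r was 0.49. All 8 platelet genes passed the count filter, and their summed level was between 629.9 and 1829 CPM. IGF2R followed the monocyte list with Pearson's r of 0.69 (permutation p = 0.00106, adjusted p = 0.0212) and the neutrophil list with 0.68 (permutation p = 0.00097, adjusted p = 0.0212). The Spearman correlations were 0.58 (permutation p = 0.00913) and 0.56 (permutation p = 0.0111), and without cows 56 and 47.4 the Pearson correlations were 0.60 and 0.70. The platelet and erythroid lists were about as close to IGF2R by Spearman correlation, at 0.57 (permutation p = 0.0104) and 0.53 (permutation p = 0.0166). Their Pearson correlations with IGF2R were 0.43 and 0.46 (permutation p = 0.0574 and 0.0435, adjusted p = 0.258 and 0.22).

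CDKN1C was lower where the monocyte list was higher, with Pearson's r of -0.67 (permutation p = 0.00101, adjusted p = 0.0212) and Spearman's rho of -0.56 (permutation p = 0.0113). This relation rested on cows 56 and 46, because without them Pearson's r was -0.32 (permutation p = 0.193). By Spearman correlation no relation of the 80 had an adjusted p below 0.05, the smallest being that of GNAS and platelets. The closest lists by Spearman correlation were B cells for PEG10 at 0.41 beside dividing cells at -0.42, natural killer cells for MEST at 0.56, platelets for KCNQ1 at -0.54, erythroid cells for PLAGL1 at -0.49, and erythroid cells for SNRPN at -0.47. None of the 10 scores passed a test on calf BW in the 19 cows (Pearson correlations between -0.34 and 0.22, smallest permutation p = 0.151, adjusted p = 0.938).

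**Figure D4:**
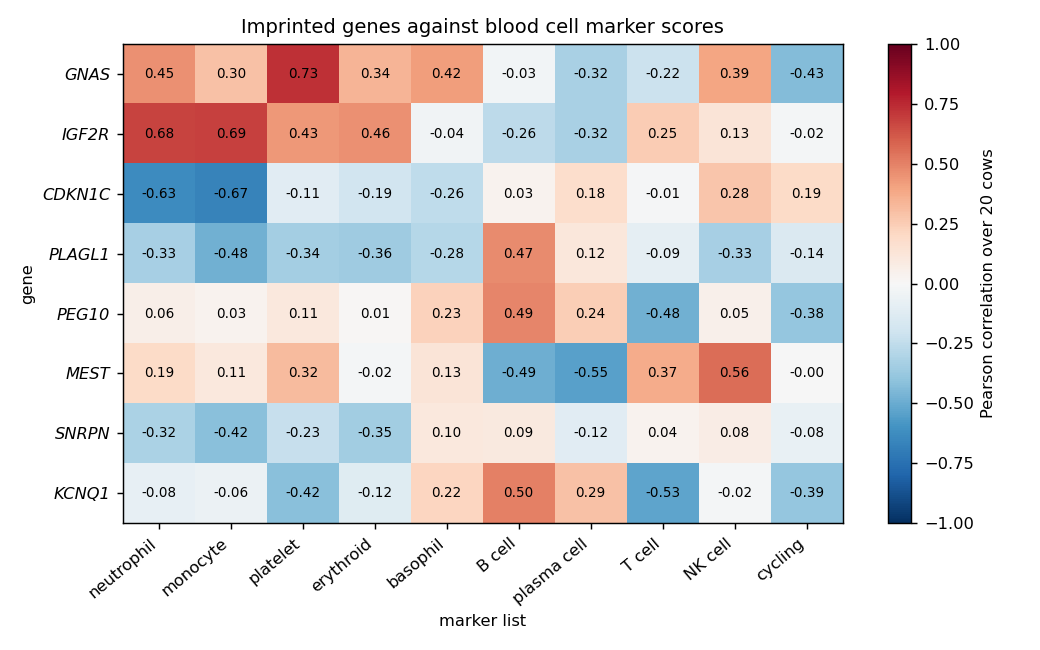
Pearson correlations over 20 cows between log2 CPM of 8 imprinted genes (rows) and mean z-scores of 10 blood cell marker lists (columns), red for positive and blue for negative. The 4 strongest are 0.73 for GNAS with platelets, 0.69 for IGF2R with monocytes, 0.68 for IGF2R with neutrophils and -0.67 for CDKN1C with monocytes.

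Single genes with the most similar pattern were taken as the highest Spearman correlations over 20 cows among the 16206 genes tested, as a description. They were picked as the highest of many values, and no chance level was computed for them. For PLAGL1 they were RBM12B at 0.86, WIPF2 at 0.84 and SACM1L at 0.84. IGF2R was closest to DLEC1 at 0.84, CTDNEP1 at 0.83 and DELE1 at 0.82, and GNAS to PDZK1IP1 at 0.86, FGR at 0.82 and OAZ2 at 0.79. SNRPN was closest to ZDHHC4 at 0.79, CCDC92 at 0.78 and TRAPPC6A at 0.76. For CDKN1C they were CDK10 at 0.79, NRBP1 at 0.75 and PGPEP1 at 0.74. MEST stood with DPP6 at 0.85, LOC789551 at 0.75 and LOC112445052 at 0.75. PEG10 stood with LOC132343756 at 0.76, GLIS2 at 0.75 and WDR73 at 0.66, and KCNQ1 with CALR3 at 0.75, VWA3A at 0.75 and LOC132344893 at 0.74. No other listed gene was among these.

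Beyond the 10 genes, a wider list held 72 genes imprinted in at least 1 mammal. Of the 66 found in the files, 38 passed the count filter, 28 did not, and 11 had no count in any cow, among them DLK1, DIO3, RTL1 and NNAT. AIRN and SNURF, which lie within the spans of IGF2R and SNRPN in the gene table, were also among the 11. As for NAP1L5, the count of 0 for SNURF is not a measure of absence. AIRN is a noncoding RNA, for which no share of zeros within other genes was computed, so its 0 is not read as absence either. The positions of the others are not given here. MEG3, the noncoding RNA of the same domain as DLK1, had a count in 1 cow. The 5 genes with the most counts, which are not per length and so give no order of expression, had median levels of 177.9 (NAP1L4), 174.7 (CD81), 144.8 (AMPD3), 89.2 (INPP5F) and 79.5 CPM (HM13). Of the 38 genes, the slope was above 0 for 17 and below 0 for 21, with a median of -0.0013. With edgeR 0 had an FDR below 0.05 and 6 had an unadjusted p below 0.05 (15.8%, where 13.9% of all genes did), and all 6 slopes were positive. Over all genes, 6.78% had such a p with a positive slope and 7.08% with a negative one. With DESeq2 0 had an FDR below 0.05 and 8 had an unadjusted p below 0.05 (21.1%, where 14.3% of the genes past the filter did), the same 6 genes, RB1 with a slope of 0.0066 (unadjusted p = 0.0405) and PON3 with a slope of -0.10 (unadjusted p = 0.0161). The 6 genes of the edgeR fit were COPG2, given above, and TH at 0.044, IMPACT at 0.029, AMPD3 at 0.021, OSBPL5 at 0.019 and BLCAP at 0.0061 per kg, with unadjusted p-values of 0.00972, 0.00722, 0.00537, 0.0158 and 0.0423. Their FDR with edgeR was between 0.181 and 0.342. TH encodes tyrosine hydroxylase and AMPD3 an AMP deaminase of red cells. Without cow 56 the slope of IMPACT was 0.015 (unadjusted p = 0.0973 with edgeR). Leaving out the same cow also gave the lowest slopes of COPG2, AMPD3 and TH among 19 fits, at 0.012, 0.015 and 0.039. Their unadjusted p-values with edgeR were then 0.0454, 0.0356 and 0.0328, and for these 3 genes they were below 0.05 in 19 of 19 fits. Cow 56 bore the heaviest calf of the fit, and the genes were picked by their p in it. A shared dependence on that cow is therefore not shown. With all 20 cows the slope of OSBPL5 was 0.0083 (unadjusted p = 0.231) and that of BLCAP was 0.0033 (unadjusted p = 0.166). Leaving out each cow in turn kept the unadjusted p of BLCAP below 0.05 in 12 of 19 fits, and it was 0.145 without cow 30.

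Factors that establish or keep methylation at imprinted regions were mostly countable. Of 11 genes, 9 passed the count filter, and the 5 with the most counts, again not per length, were DNMT3A, CTCF, DNMT1, TRIM28 and KDM1B. Medians were 229.0 CPM for the methyltransferase DNMT3A, 176.6 for the insulator protein CTCF and 171.1 for the maintenance methyltransferase DNMT1. They were 106.1 CPM for the corepressor TRIM28 and 83.0 for the histone demethylase KDM1B. DPPA3 and DNMT3L, which act in egg and early embryo, were under the filter, while ZFP57 had a median of 0.330 CPM. With edgeR 0 of the 9 had an FDR below 0.05 on calf BW and 1 had an unadjusted p below 0.05 (11.1%, below the 13.9% of all genes). This was UHRF1, which brings DNMT1 to replicating DNA, with a slope of 0.011 per kg (unadjusted p = 0.0345, FDR = 0.316 with edgeR), and 0.0066 without cow 56 (unadjusted p = 0.197).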

How the data were processed

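RNA of 20 whole blood samples was sequenced, 1 library per cow. After trimming in Trimmomatic and alignment by STAR 2.7.0b to the ARS-UCD1.3 cattle genome, the authors ran featureCounts (Subread 2.0.3) and deposited raw counts per Entrez gene without normalization. The paper names a Truseq-stranded kit and the labels a SMARTer Stranded kit. Strand and multi-mapping settings are not given in the sources used here. All 37063 identifiers matched the ARS-UCD2.0 gene table, whose coordinates are not printed because the builds differ, and gene spans there served only to find neighbours.

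The slope on calf BW was fitted to all genes reaching 10 counts in 5 or more of 19 cows by edgeR 4.0.16 (R 4.3.3) with TMM and its quasi-likelihood test, with Benjamini-Hochberg adjustment (FDR). Alternatives were DESeq2 1.42.0, voom in limma 3.58.1, all 20 cows, other size factors and filters, rank of BW, covariates and leaving out each cow. Fits on halved counts were chosen after seeing the data. The steps were tested on simulated data. Correlations used log2 CPM (prior count of 2), 100000 two-sided permutations and Python 3.11.15. Libraries are separate cows, and intervals for counts of 0 (3 counts) cover counting error only. The imprinted genes, marker lists and other lists were chosen with earlier results of these data known. Named are the listed genes, other list members with an unadjusted p below 0.05 or the 5 highest CPM, the 3 likest genes and the closest marker lists. Eosinophil markers were not scored because 1 of 6 passed the filter. No sequences are given.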

Additional observations from a re-analysis of the deposited data

How the results depend on the processing

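No imprinted gene of the list had an FDR below 0.05 under any alternative run, including DESeq2, voom, both filters, both size factors, all 20 cows, the rank of BW, the covariates, halved counts and each fit without 1 cow (0 to 0 genes). PEG10 had too few counts for the filter of 10 counts in every cow. The count over all genes was 189 with DESeq2, 147 without a count filter, 4 with all 20 cows and 1 with library size as a covariate. Without 1 cow it was between 0 and 34, with 34 in the fit lacking cow 32. It was 0 in the main fit and with voom, 10 counts in every cow, RLE or upper quartile factors. The rank of BW, each marker score and halved counts also gave 0. Where no gene at all passed, the 0 for the imprinted genes was fixed and says nothing about them in particular. The slopes of IGF2R, SNRPN, PEG10, PLAGL1 and MEST kept their sign in all alternatives, but not their size. The slope of IGF2R was between -0.0070 and -0.0013 and that of PLAGL1 between 0.0038 and 0.0091 without 1 cow, that of SNRPN between -0.0090 and -0.00088, that of PEG10 between -0.028 and -0.012 and that of MEST between 0.0091 and 0.029. With all 20 cows PEG10 was at -0.0026 and SNRPN at -0.0024, and with the erythroid score PLAGL1 was at 0.0023 and IGF2R at -0.0026. CDKN1C was at 0.0040 with the neutrophil score, 0.0084 with all 20 cows and 0.0094 with voom. The causes were not tested. That of GNAS was -0.00079 with all 20 cows and between -0.0029 and 0.0031 without 1 cow, and that of CDKN1C between -0.00094 and 0.028 without 1 cow. KCNQ1, at -3.1e-05, was 0.00064 with DESeq2, 0.0036 with voom, 0.00076 without a filter, 0.00015 with 10 counts in every cow, 0.00047 with all 20 cows, 0.00042 with RLE and 0.00013 with upper quartile factors, 0.0016 with library size, 0.00085 with the T cell score, and between -0.0081 and 0.0054 without 1 cow. SNRPN had an unadjusted p of 0.0489 with the erythroid score as a covariate (FDR = 0.483 with edgeR), the only value below 0.05 among the 8 genes. The median CV of the 8 genes was between 21.7% and 24.1% without 1 cow. No pair of genes was correlated past an adjusted p of 0.05 with RLE factors, without the 72.5 kg calf, by Spearman correlation or after removing neutrophil and T cell scores. Depth limits KCNQ1, MEST, PEG10, CDKN1C and above all PEG3. No paired analysis was possible because all cows belong to 1 group.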

Other observations

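H19, a noncoding RNA transcribed from the maternal copy beside IGF2, was among the more uneven genes of the wider imprinted list and is named here after its values were seen. It had no count in 9 cows and 188 counts, or 5.10 CPM, in cow 41.5, followed by 116 counts, or 3.41 CPM, in cow 50 and 44 counts, or 1.36 CPM, in cow 46. IGF2 was counted in all 20 cows, with a median of 2.07 CPM and its highest levels in cows 38 and 50. The slope of H19 on calf BW was 0.075 per kg (unadjusted p = 0.415, FDR = 0.768 with edgeR).

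Cow 56 was the highest of 20 for CDKN1C, COPG2 and HERC3, the second highest for SNRPN, the third for PLAGL1 and the lowest for IGF2R and SNRPB. For GNAS, PEG10, MEST and KCNQ1 it stood between places 13 and 16 from the highest.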
